A study of Homo sapiens with 8 samples.

Results

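The genes of 9 proteins that myeloid cells store in granules were followed in MOLM-13 cells: MPO, ELANE, PRTN3, AZU1, CTSG, BPI, LYZ, RNASE2 and RNASE3. They were chosen by name, as the contents of azurophil (primary) granules, the granule ribonucleases and lysozyme, and all 9 were found among the 26475 gene symbols of the deposited table. MOLM-13 is a long-established human cell line of acute myeloid leukemia with a KMT2A-AF9 fusion, and every group came from this 1 line, whose genotype the labels give as wild type. The 4 groups of 2 bulk RNA-seq libraries were cells given VTP50469 and WM119 together (the combination), VTP50469 alone, WM119 alone, or the solvent DMSO. VTP50469 keeps Menin from binding KMT2A. WM119, as the labels spell the compound that the study calls WM1119, inhibits the histone acetyltransferase KAT6A. The question was how each inhibitor and the pair changed the transcriptome. Dose and duration of treatment are not stated in the labels or methods. The methods describe the drug experiments of the study in general as biologically replicated, with more replicates than the libraries analysed here. They do not tie this to the libraries. The p values therefore measure only the spread between the 2 libraries of a group, pooled over the 4 groups, which may be technical.

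Azurophil granules are the first granules that a myeloid precursor makes, at the promyelocyte stage, and their proteins are transcribed mainly in that window and kept in the granule as the cell matures. Myeloperoxidase (MPO) turns hydrogen peroxide and chloride into hypochlorous acid. Neutrophil elastase (ELANE), proteinase 3 (PRTN3) and cathepsin G (CTSG) are serine proteases, and azurocidin (AZU1) is a relative that has lost protease activity but kills bacteria. BPI binds the lipopolysaccharide of Gram-negative bacteria, lysozyme (LYZ) cleaves bacterial cell wall peptidoglycan and is also made in quantity by monocytes, and RNASE2 and RNASE3 encode the eosinophil-derived neurotoxin and the eosinophil cationic protein, ribonucleases of the RNase A superfamily. The genes of AZU1, PRTN3 and ELANE lie side by side on chromosome 19, and those of RNASE3 and RNASE2 on chromosome 14. C/EBP factors, PU.1 (SPI1) and MYB are known regulators of granule genes.

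The promoters are shown because these genes moved together in the combination and letters that such factors recognize can be looked for in them. RefSeq (GRCh38.p14) promoters could be matched for PRTN3, AZU1, CTSG, RNASE2 and RNASE3, 5 of the 9 genes. MPO, ELANE, BPI and LYZ were not matched. The 250 bases before each annotated start are given 5′ to 3′ on the gene's own strand, with capitals for matches, on either strand, to the C/EBP core TTGCNNAA, the PU.1 core GAGGAA and the MYB core AACNG. They span chr19:840749-840998 on the plus strand for PRTN3, chr19:827587-827836 plus for AZU1, chr14:24576251-24576500 minus for CTSG, chr14:20955237-20955486 plus for RNASE2 and chr14:20891135-20891384 plus for RNASE3.
PRTN3: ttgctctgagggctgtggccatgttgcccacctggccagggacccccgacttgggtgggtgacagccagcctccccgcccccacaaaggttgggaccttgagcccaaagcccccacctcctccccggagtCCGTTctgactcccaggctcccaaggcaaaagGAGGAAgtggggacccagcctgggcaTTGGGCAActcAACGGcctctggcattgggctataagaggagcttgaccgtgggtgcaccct
AZU1: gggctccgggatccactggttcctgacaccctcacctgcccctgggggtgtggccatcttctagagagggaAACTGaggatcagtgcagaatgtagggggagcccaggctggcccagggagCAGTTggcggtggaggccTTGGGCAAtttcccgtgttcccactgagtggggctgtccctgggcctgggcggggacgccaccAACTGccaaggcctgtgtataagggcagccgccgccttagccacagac
CTSG: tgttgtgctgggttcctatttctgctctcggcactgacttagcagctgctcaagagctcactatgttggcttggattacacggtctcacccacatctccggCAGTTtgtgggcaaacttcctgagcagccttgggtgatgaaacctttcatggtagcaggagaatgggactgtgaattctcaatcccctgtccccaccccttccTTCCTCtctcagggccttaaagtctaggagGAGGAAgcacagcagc
RNASE2: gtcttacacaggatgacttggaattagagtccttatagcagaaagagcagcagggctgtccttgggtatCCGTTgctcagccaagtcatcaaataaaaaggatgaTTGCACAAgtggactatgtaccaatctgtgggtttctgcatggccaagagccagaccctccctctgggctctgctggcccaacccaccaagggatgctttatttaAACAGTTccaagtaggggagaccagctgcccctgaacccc
RNASE3: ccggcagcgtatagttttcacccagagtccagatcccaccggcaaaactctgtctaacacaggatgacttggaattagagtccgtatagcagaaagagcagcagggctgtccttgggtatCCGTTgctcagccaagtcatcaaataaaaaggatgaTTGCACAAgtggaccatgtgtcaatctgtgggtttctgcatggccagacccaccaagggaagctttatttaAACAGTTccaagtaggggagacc
No match overlapped a match to another motif, although forward and reverse MYB matches overlap in the AACAGTT of both ribonuclease genes. The C/EBP core was present in 4 of these 5 promoters, all but CTSG, and in 9.05% of 35116 RefSeq promoters of the same length. It lay 62 bases before the start in PRTN3, 111 in AZU1, 145 in RNASE2 and 94 in RNASE3. The PU.1 core was present in PRTN3 and CTSG (23.6% of all promoters), and the MYB core in all 5 (70.6% of all promoters). The RUNX core TGTGGT, searched on both strands, and TATAAA, searched on the gene's strand, were in none of the 5, against 11.0% and 6.80% of all promoters. A match describes the letters and is not a binding site. The RNASE2 and RNASE3 promoters were 96.5% identical over 199 aligned bases, with a run of 86 identical bases, so their matches are largely 1 sequence counted in both.

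Library totals ran from 18092906 to 23634468 counts. Values are given as CPM, counts scaled to the library total after TMM normalization, and a gene is called here when the edgeR quasi-likelihood F test, fitted to all 4 groups over 12401 genes, gave a Benjamini-Hochberg adjusted p under 0.05. The fit gives all groups 1 estimate of the spread, but the 2 libraries of a group differed most in the combination. The chi-square per degree of freedom between them was 162 there, 9.65 with VTP50469, 34.6 with WM119 and 4.23 in DMSO. The SE of comparisons without the combination therefore also draws on its spread. Genes with counts numbered 12972 in combination replicate 2, against 14142 to 14544 in the other 7 libraries. In that library the difference from DMSO also followed transcript length, with a Spearman rho of -0.54 across 12108 genes, so that short transcripts read higher. The rho was -0.13 in combination replicate 1, 0.01 and -0.28 with VTP50469, and -0.51 and 0.09 with WM119. Of the 9 transcripts only MPO, at 3216 bases, is near the median of 3206 bases, while the others are 720 to 1841 bases long. The combination libraries are therefore given one by one, and offsets for length and GC content are quoted for some of the counts and changes, not for all that they move. All 8 myeloid leukemia markers passed the count filter, and their summed level was 1317 to 1788 CPM in the combination, 1134 to 1165 with VTP50469, 1153 to 1253 with WM119 and 1073 to 1089 in DMSO. Members of that list went opposite ways in the combination against DMSO. Of them 4 were called higher (among them SPI1 and CSF1R) and 2 lower (FLT3 and MEIS1), against 5.85% and 3.44% of all genes. With the offsets 5 were higher and 3 lower, against 12.1% and 12.6% of genes. In bulk RNA, fewer cells of a kind and less RNA per cell cannot be told apart.

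The 9 transcripts together took 1.03% and 1.37% of all counts in the combination, 0.441% and 0.524% with VTP50469, 0.302% and 0.288% with WM119, and 0.150% and 0.164% in DMSO. The 4 groups did not overlap in this share. LYZ was the largest item in every library, with 63.1% and 53.6% of the 9 transcripts' counts in the combination, 41.7% and 42.8% with VTP50469, 51.3% and 54.0% with WM119, and 36.8% and 37.4% in DMSO. MPO supplied 14.1% of them in both combination libraries and 16.1% and 17.2% with VTP50469, against 3.28% and 3.80% with WM119 and 3.31% and 2.501% in DMSO. The share of MPO was thus high where VTP50469 had been given and low where it had not. ELANE supplied 7.02% and 10.6% in the combination, 12.7% and 11.5% with VTP50469, 12.7% and 11.8% with WM119, and 22.01% and 22.2% in DMSO.

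**Figure D1:**
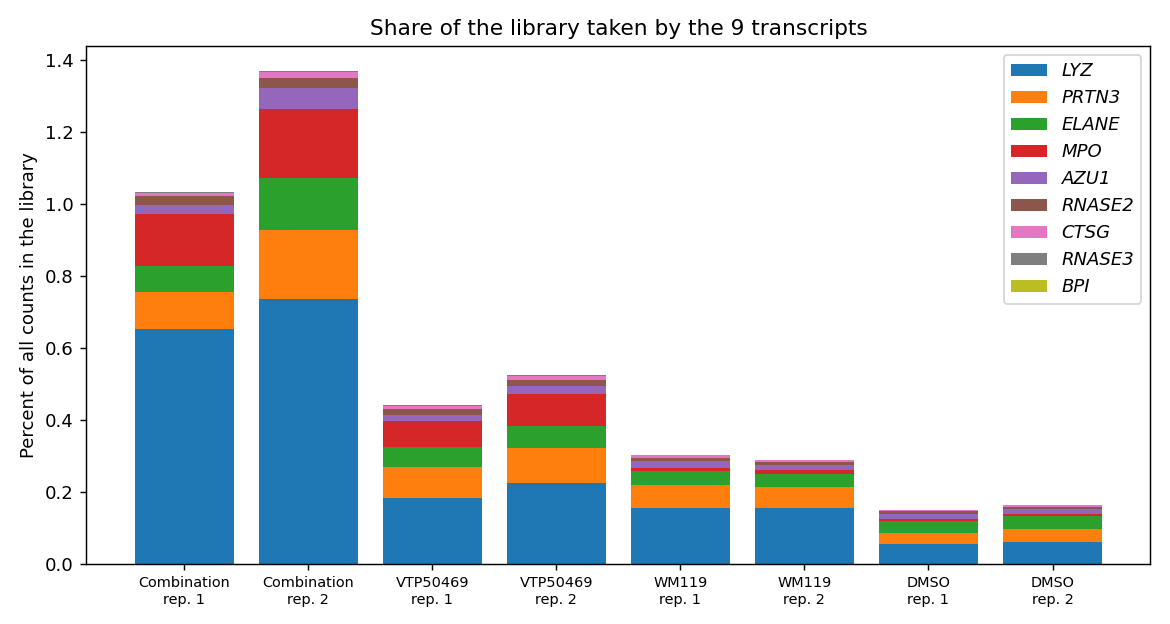
Stacked bars of the percent of all counts that each of the 9 transcripts took in each library, with the 2 libraries of a group side by side. The bars reach 1.03% and 1.37% in the combination against 0.150% and 0.164% in DMSO, and BPI and RNASE3 are too small to be seen clearly.

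The combination raised 8 of the 9 transcripts over DMSO (edgeR adjusted p under 0.05), against 5.85% of all tested genes called higher. BPI and MPO changed most, then LYZ, RNASE3 and PRTN3, and AZU1 was the 1 transcript not called (adjusted p = 0.0503). The median log2 change of the 9 was 2.31, against 0.01 over all tested genes. BPI passed the count filter only through the groups where it is high, and without it 7 of 8 were called with a median of 2.09. Both combination libraries lay above both DMSO libraries for all 9, as for 29.0% of tested genes. DESeq2 called 9 of 9, against 10.2% of its genes called higher. With length and GC offsets in edgeR 9 were called (12.1% of genes higher). Only MPO and LYZ were still called without DMSO replicate 1 (0.327% of genes higher) or without DMSO replicate 2 (0.397%). Whichever single-agent library was left out, 6 were called and ELANE and CTSG were lost, against 2.05% and 2.01% of genes higher without VTP50469 replicates 1 and 2, and 2.38% and 2.26% without WM119 replicates 1 and 2. All 9 were called without combination replicate 1, when 28.9% of genes were called higher, and without combination replicate 2, when 8.9% were. When the combination and DMSO libraries were fitted alone, none was called, and the share of all genes called in that fit is not given.

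VTP50469 alone raised MPO and LYZ, 2 of the 9, over DMSO, against 0.153% of genes called higher. At an unadjusted p under 0.05, 7 transcripts were higher (3.83% of genes), and DESeq2 called 7, all but ELANE and AZU1 (0.991% of its genes). Both VTP50469 libraries lay above both DMSO libraries for all 9 (27.3% of genes), and the median log2 change was 1.48. BPI is in both sets of 7, and it passed the count filter only through the groups where it is high. Without BPI edgeR called 2 of 8, MPO and LYZ, with a median of 1.41. Both calls were lost whichever library of VTP50469, WM119 or DMSO was left out. Without combination replicate 1 (1.98% of genes higher) or replicate 2 (2.02%) 8 were called, and 8 were also called with length and GC offsets (1.24% of genes higher), all but AZU1.

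WM119 alone gave no call among the 9 or among all 12401 genes (0% higher) in edgeR. At an unadjusted p under 0.05, 3 of the transcripts, MPO, PRTN3 and LYZ, were higher, against 3.15% of genes. DESeq2 called MPO and LYZ, against 0.393% of its genes, and edgeR with length and GC offsets called PRTN3 and LYZ (0.198% of genes higher). Without combination replicate 1 (0.925% of genes higher) or replicate 2 (0.804%) 3 were called. Both WM119 libraries lay above both DMSO libraries for 5 of 9 transcripts, MPO, PRTN3, LYZ, RNASE2 and RNASE3, as for 24.1% of genes. The fitted change was above 0 for 8 transcripts, all but BPI (51.6% of genes). All 3 comparisons share the DMSO libraries.

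**Figure D2:**
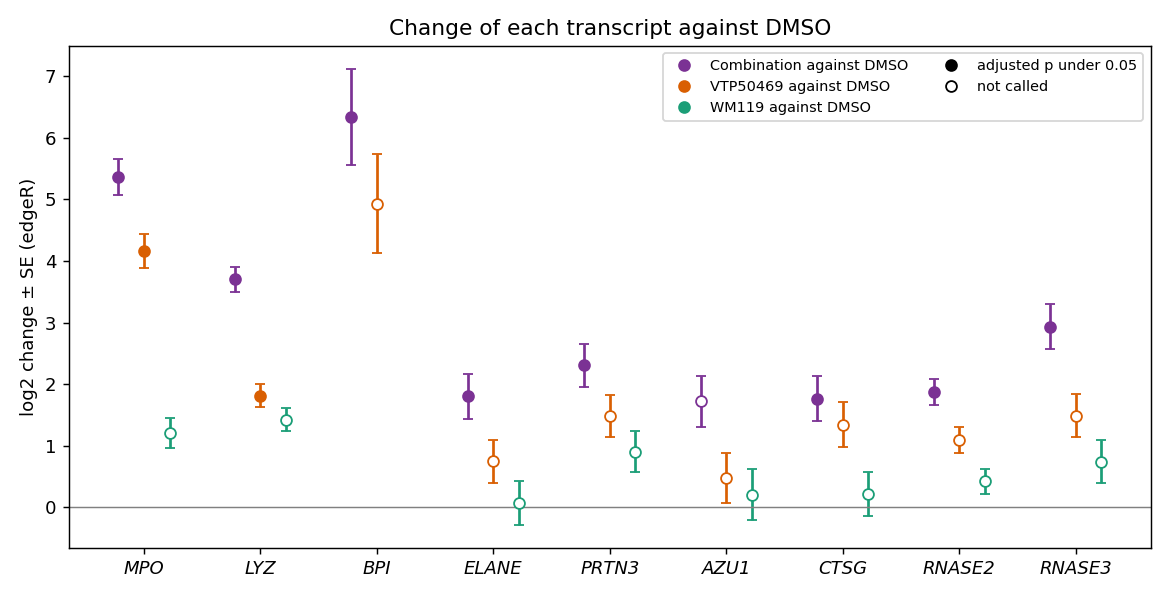
Fitted log2 change (edgeR, ± SE) of each transcript against DMSO for the combination, VTP50469 and WM119, with filled points for adjusted p under 0.05. Combination points are filled for all but AZU1 and VTP50469 points for MPO and LYZ, and BPI has no WM119 point because its libraries held 1 count against 2 in DMSO.

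MPO (chr17:58269855-58280935, minus strand, GRCh38.p14, 12 exons) had 1421 and 2214 CPM in the combination, 689 and 897 CPM with VTP50469, 99.7 and 106 CPM with WM119, and 48.6 and 40.0 CPM in DMSO. No groups overlapped. The combination was 41.0-fold above DMSO (log2 5.36 ± 0.29 SE, edgeR adjusted p = 0.00119) and VTP50469 17.9-fold above DMSO (log2 4.16 ± 0.28, adjusted p = 0.0113). VTP50469 was also above WM119 (log2 2.95 ± 0.26, edgeR adjusted p = 0.0328). WM119 stood 1.21 ± 0.25 above DMSO on the log2 scale in edgeR (adjusted p = 0.387), and the combination stood 1.20 ± 0.24 above VTP50469 (adjusted p = 0.102). Neither of these was called by edgeR, while DESeq2 gave adjusted p = 0.00430 and 0.000707 for them. The MPO call in the combination against DMSO held with each library left out in turn, with edgeR adjusted p up to 0.0430, and was lost when those 4 libraries were fitted alone (adjusted p = 0.0686).

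LYZ (chr12:69348381-69354234, plus strand, 4 exons) had 6374 and 8431 CPM in the combination, 1783 and 2226 CPM with VTP50469, 1559 and 1502 CPM with WM119, and 541 and 598 CPM in DMSO. No groups overlapped, but the libraries of the single agents were close, and VTP50469 against WM119 was not called (log2 0.39 ± 0.18, edgeR adjusted p = 1). The combination was 13.0-fold above DMSO (log2 3.70 ± 0.21, edgeR adjusted p = 0.00119). LYZ was the 1 transcript of the 9 called between the combination and VTP50469 (log2 1.88 ± 0.19, edgeR adjusted p = 0.0298), and was called above WM119 too (log2 2.27 ± 0.19, adjusted p = 0.00757). VTP50469 alone was 3.52-fold above DMSO (log2 1.82 ± 0.19, edgeR adjusted p = 0.0284) and WM119 alone 1.43 ± 0.19 above on the log2 scale (adjusted p = 0.206; DESeq2 1.29e-07). The fitted log2 changes with VTP50469 and WM119 were thus close to each other for LYZ (1.82 and 1.43) and far apart for MPO (4.16 and 1.21), a difference between genes that was not tested.

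BPI (chr20:38304156-38337505, plus strand, 15 exons) was close to absent outside the groups that had VTP50469. Its counts were 70 and 101 in the combination, 27 and 48 with VTP50469, 1 and 0 with WM119, and 1 and 1 in DMSO. Scaled for depth, the combination held 85.2 times the DMSO level, with a 95% counting interval of 23.2 to 709, and VTP50469 held 34.4 times, with an interval of 9.19 to 289. The combination was called above DMSO (edgeR adjusted p = 0.00663) and above WM119 (adjusted p = 0.0161), and VTP50469 was not called above DMSO (adjusted p = 0.105, DESeq2 0.00313). WM119 and DMSO are both under the floor of 3 counts per group, 0.0670 and 0.0758 CPM, so no fold is given between them. These intervals and floors cover counting error only. Of the 150-base windows of the BPI transcript, 1.18% are shared with an overlapping long noncoding RNA, so a few of its reads could belong to that RNA.

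**Figure D3:**
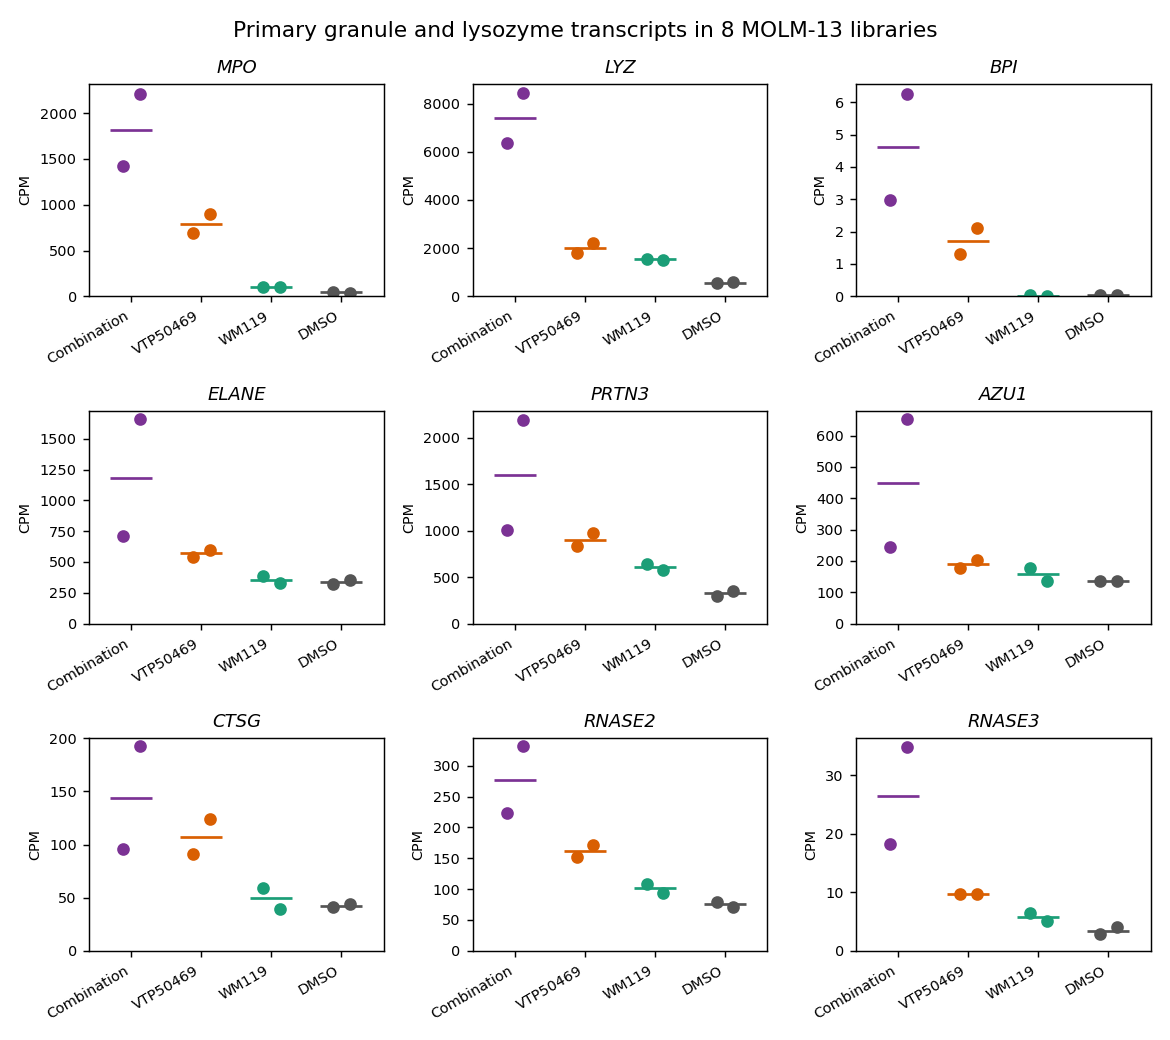
CPM of each transcript in each library (points) with the group mean (lines), on axes that start at 0, with the combination left and DMSO right in each panel. The combination points are highest in every panel except CTSG, where the lower one (95.7 CPM) falls between the VTP50469 libraries, and their ratio is largest for AZU1, at 244 and 653 CPM.

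Of the chromosome 19 proteases, PRTN3 (chr19:840999-848175, plus strand) moved most. It had 1008 and 2194 CPM in the combination, 836 and 971 CPM with VTP50469, 642 and 571 CPM with WM119, and 298 and 349 CPM in DMSO. No groups overlapped, and the lower combination library stood just above the higher VTP50469 library. The combination was 4.95-fold above DMSO (log2 2.31 ± 0.35, edgeR adjusted p = 0.0129), while VTP50469 (log2 1.48 ± 0.34, adjusted p = 0.237) and WM119 (0.91 ± 0.34, adjusted p = 0.903) were not called. ELANE (chr19:852303-856243, plus strand) had 709 and 1662 CPM in the combination, 541 and 597 CPM with VTP50469, 384 and 329 CPM with WM119, and 324 and 356 CPM in DMSO. Its WM119 and DMSO libraries overlapped, and those of the other groups did not. The combination was 3.49-fold above DMSO (log2 1.80 ± 0.36, edgeR adjusted p = 0.0304), and ELANE was not called with VTP50469 (0.75 ± 0.36, adjusted p = 0.854).

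AZU1 (chr19:827837-832018, plus strand) had 244 and 653 CPM in the combination, 177 and 202 CPM with VTP50469, 178 and 136 CPM with WM119, and 135 and 137 CPM in DMSO. The combination libraries stood above the other 6, WM119 overlapped with both VTP50469 and DMSO, and no comparison was called (combination against DMSO log2 1.72 ± 0.42, edgeR adjusted p = 0.0503). CTSG (chr14:24573518-24576250, minus strand, away from the chromosome 19 cluster) had 95.7 and 193 CPM in the combination, 91.0 and 124 CPM with VTP50469, 59.4 and 39.5 CPM with WM119, and 41.1 and 43.6 CPM in DMSO. It was the 1 transcript whose combination and VTP50469 libraries overlapped, and the WM119 and DMSO libraries overlapped too. The combination was called above DMSO (log2 1.77 ± 0.37, edgeR adjusted p = 0.0324). In the combination the higher library was 2.67 times the lower for AZU1, 2.35 times for ELANE, 2.18 times for PRTN3 and 2.01 times for CTSG. Without combination replicate 2, the higher one, the log2 change over DMSO was 0.86 for AZU1, 1.07 for ELANE, 1.65 for PRTN3 and 1.19 for CTSG, and with length and GC offsets 0.89, 1.01, 1.54 and 1.10.

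The neighbors of the protease cluster were read in gene order. CFD (complement factor D, a serine protease of the same cluster) lies next to ELANE, was the 1 tested gene of 7 listed as other granule serine proteases, and was higher in the combination (log2 1.85 ± 0.36, edgeR adjusted p = 0.0274). Outside it, PTBP1 (-0.28 ± 0.15), MED16 (0.18 ± 0.13), PALM (-1.27 ± 0.41) and R3HDM4 (0.65 ± 0.19) were not called (edgeR adjusted p = 0.0816 to 0.355). PRTN3 had the highest fitted change of the 8 genes in each of the 3 comparisons with DMSO, and differences between the genes of the cluster were not tested. Beside MPO, LPO (lactoperoxidase) was low at 1.40 and 1.18 CPM in the combination, against 0.216 and 0 CPM in DMSO, and was not called (log2 3.58 ± 0.93, edgeR adjusted p = 0.0604).

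**Figure D4:**
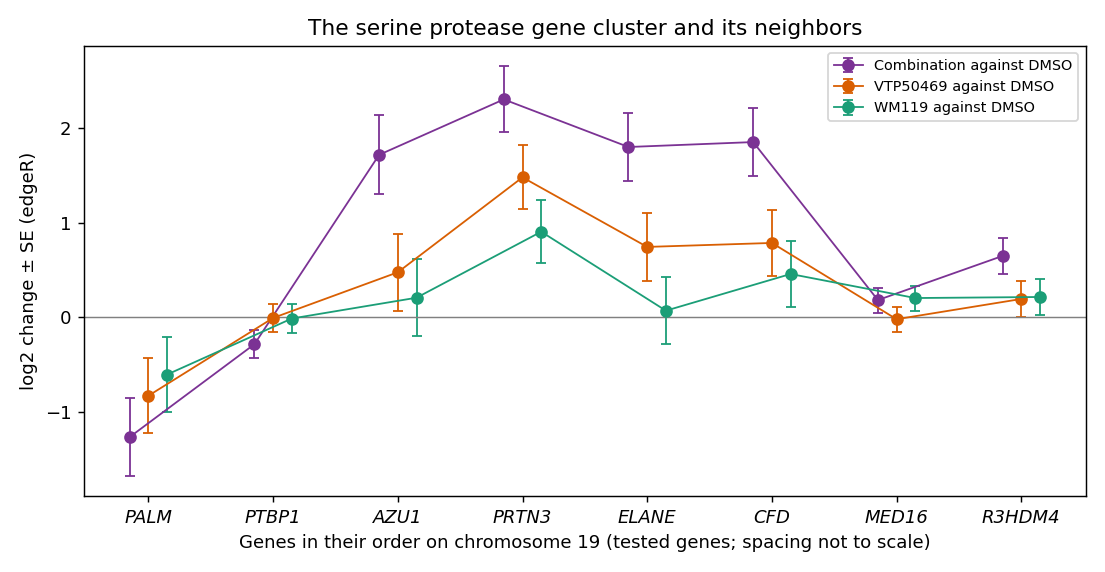
Fitted log2 change (edgeR, ± SE) against DMSO for 8 tested genes in their order on chromosome 19, with 1 line for each of the combination, VTP50469 and WM119. The combination line lies between 1.72 and 2.31 from AZU1 to CFD and between -1.27 and 0.65 at the genes outside the cluster.

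RNASE2 (chr14:20955487-20956436, plus strand, 2 exons) had 223 and 332 CPM in the combination, 152 and 171 CPM with VTP50469, 109 and 93.8 CPM with WM119, and 79.8 and 71.3 CPM in DMSO. RNASE3 (chr14:20891385-20892348, plus strand, 2 exons) had 18.3 and 34.8 CPM in the combination, 9.76 and 9.66 CPM with VTP50469, 6.52 and 5.07 CPM with WM119, and 2.81 and 4.08 CPM in DMSO. Neither gene had overlapping groups. The combination was 3.68-fold above DMSO for RNASE2 (log2 1.88 ± 0.21, edgeR adjusted p = 0.00548) and 7.64-fold for RNASE3 (log2 2.93 ± 0.36, edgeR adjusted p = 0.00672), and both were called above WM119 (adjusted p = 0.0314 and 0.0382). The calls above WM119 were lost whichever library of the single agents or DMSO was left out. With the single agents neither was called. Across the alternatives the log2 change of the combination over DMSO ran from 1.46 to 2.12 for RNASE2 and from 2.41 to 3.31 for RNASE3. Their transcripts are 88.8% identical over 717 aligned bases, but no stretch of 150 bases, the read length, is shared. The eosinophil markers EPX, PRG3 and CLC had 0 counts in all libraries, and PRG2, the other 1 on that list, stood at 1.14 to 1.49 CPM in the combination, 0.883 to 0.922 with VTP50469, 0.422 to 0.724 with WM119 and 0.162 to 0.474 in DMSO.

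Per kilobase of transcript, which allows genes to be compared, LYZ led in the combination at 4968 ± 976 CPM per kb (SD, n = 2), against 382 ± 27.0 in DMSO. In DMSO, LYZ stood above ELANE (374 ± 24.9) and ELANE above PRTN3 (328 ± 36.2) in both libraries, although their mean ± SD overlapped. AZU1 (150.1 ± 1.36), RNASE2 (105 ± 8.32), CTSG (46.3 ± 1.98), MPO (13.8 ± 1.91), RNASE3 (4.70 ± 1.22) and BPI (0.0276) followed. In the combination the order after LYZ was PRTN3 (1622 ± 849), ELANE (1304 ± 741), MPO (565 ± 174), AZU1 (495 ± 319), RNASE2 (386 ± 107), CTSG (158 ± 75.1), RNASE3 (36.1 ± 15.9) and BPI (2.51 ± 1.26). The mean ± SD of PRTN3 and ELANE overlapped in the combination, as did that of MPO with ELANE, AZU1 and RNASE2. Within each combination library, however, PRTN3 stood above ELANE, ELANE above MPO and MPO above RNASE2. MPO and AZU1 changed order between the 2 libraries (442 and 688 against 269 and 720 CPM per kb). In DMSO MPO lay below CTSG and above RNASE3 with no overlap. Across groups, 5 transcripts (MPO, PRTN3, LYZ, RNASE2 and RNASE3) had every combination library above every VTP50469 library, those above every WM119 library and those above every DMSO library, an order held by 1.95% of tested genes. Both combination libraries stood above the other 6 for 8 of 9, all but CTSG (13.2% of genes).

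The combination was also set against each inhibitor. Over VTP50469 edgeR called 1 of 9, LYZ (0.234% of genes called higher), and DESeq2 called 5, MPO, AZU1, LYZ, RNASE2 and RNASE3 (3.65% of its genes). The combination libraries lay above those of VTP50469 for 8 transcripts (22.7% of genes). Across the alternatives the log2 change over VTP50469 ran from 0.13 to 1.27 for PRTN3 and from 0.39 to 1.03 for RNASE2. The edgeR count ran from 0 without a single-agent or DMSO library to 9 without combination replicate 1, when 26.6% of genes were called higher, and was 2 without combination replicate 2 (1.72%). Over WM119 edgeR called 5 of 9, MPO, BPI, LYZ, RNASE2 and RNASE3 (1.02% of genes), or 4 of 8 without BPI, whose high groups alone took it past the count filter. DESeq2 called 9 (3.48% of its genes), and all 9 had separate libraries (19% of genes). None of the 5 was called without WM119 replicate 1 or without WM119 replicate 2. The calls of BPI, RNASE2 and RNASE3 were also lost whichever VTP50469 or DMSO library was left out. All 9 were called without combination replicate 1, when 24.8% of genes were, and 7 without combination replicate 2 (2.91%). VTP50469 against WM119 gave 1 call, MPO (0.0242% of genes), and 2 in DESeq2, MPO and BPI (0.522% of its genes). Libraries were separate for 8 transcripts, all but AZU1 (20.0% of genes). BPI is among these 8, with 75 counts against 1, and its high groups alone took it past the count filter. Without BPI edgeR called 1 of 8, MPO. That call was lost whichever library of the single agents or DMSO was left out, while 5 were called without combination replicate 1 (0.98% of genes higher) and 6 without combination replicate 2 (1.08%).

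Whether the combination departed from the sum of the single agents was tested as the interaction on the log2 scale. For MPO the sum was 5.37 and the combination 5.36, a departure of -0.02 with a 95% interval of -0.82 to 0.79. PRTN3 was also near 0 (-0.08, interval -1.20 to 1.04), and CTSG gave 0.20 (-0.995 to 1.39). The estimates were above 0 for LYZ (0.46, -0.16 to 1.08), RNASE2 (0.36, -0.34 to 1.06), RNASE3 (0.70, -0.45 to 1.85), ELANE (0.99, -0.20 to 2.18) and AZU1 (1.04, -0.34 to 2.41). No transcript was called by edgeR (adjusted p = 0.938 to 0.993), none of the 9 had an unadjusted p under 0.05 (273 genes did), and edgeR called 0% of genes. DESeq2 called none of the 9 and 0.0305% of its genes. The upper bounds exceeded 1 on the log2 scale for all 8 but MPO, so a departure of that size lies within their intervals. Without combination replicate 1, 5 transcripts (ELANE, AZU1, LYZ, RNASE2 and RNASE3) were called, when 30.9% of all genes were, and without combination replicate 2 none was, nor any other gene (0%).

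**Figure D5:**
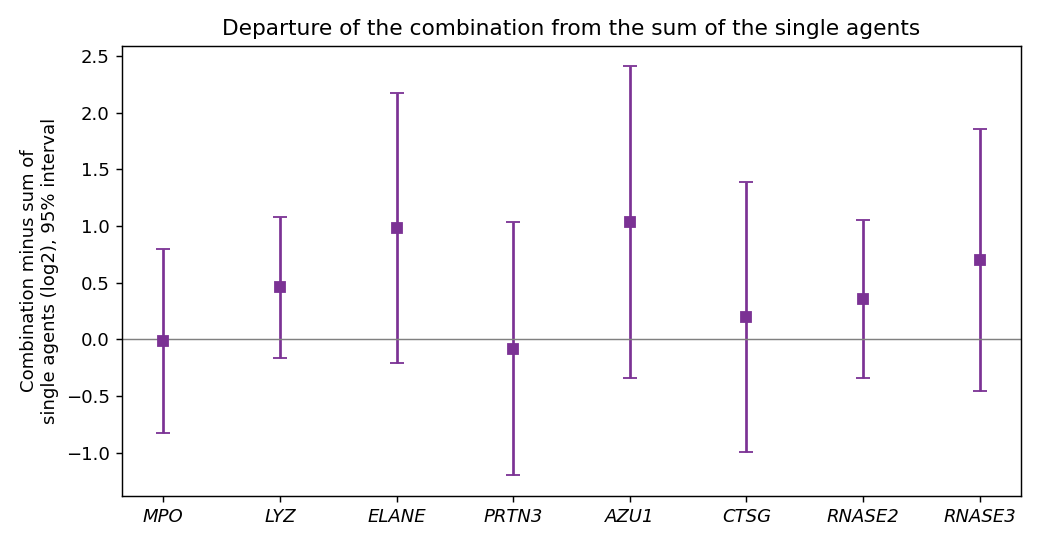
Departure of the combination from the sum of the single-agent log2 changes for 8 transcripts, with 95% intervals, BPI being left out for its low counts. Every interval includes 0, MPO and PRTN3 sit at -0.02 and -0.08, and ELANE and AZU1 are highest at 0.99 and 1.04.

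Genes that handle granule proteins were also measured. Of 7 tested genes for processing, packing and inhibition, 5 were higher and none lower than in DMSO, against 5.85% higher and 3.44% lower among all genes. SERPINA1, among the 5, had 3.05 and 5.95 CPM in the combination and 0 CPM in both DMSO libraries. It could thus only be called higher. Without combination replicate 2 (8.9% of all genes higher, 5.6% lower), or with length and GC offsets (12.1% higher, 12.6% lower), 5 were higher and 1 lower. SLPI, a secreted inhibitor of elastase and cathepsin G, had 103 and 291 CPM in the combination, against 2.54 and 2.51 CPM in DMSO (log2 6.28 ± 0.60, edgeR adjusted p = 0.00318). SRGN, the proteoglycan core that packs granule proteins (log2 1.34 ± 0.17, edgeR adjusted p = 0.00789), and SERPINB8, an intracellular serpin (1.07 ± 0.15, adjusted p = 0.0108), were higher as well. CTSC, the dipeptidyl peptidase that activates the serine proteases, was not called (0.10 ± 0.11, edgeR adjusted p = 0.539).

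Of 21 other azurophil and lysosomal genes, 17 were tested. The defensin genes of this list were not: DEFA1, DEFA1B and DEFA3 had 0 counts in every library, and DEFA4 reached at most 0.212 CPM. Of the 17 tested, 10 were higher in the combination and none lower, with a median log2 change of 0.88, against 5.85% of all genes higher. PRSS57 (log2 1.31 ± 0.34, edgeR adjusted p = 0.0618) and CD63 (0.79 ± 0.30, adjusted p = 0.133) were among those not called. Without combination replicate 2 (8.9% of genes higher), or with length and GC offsets (12.1%), 15 of the 17 were called higher. The 10 include PSAP, the precursor of the saposins (1.29 ± 0.14, edgeR adjusted p = 0.00483) and CTSD, the aspartic protease cathepsin D (2.07 ± 0.32, adjusted p = 0.0132). Of 4 other tested RNase A genes, RNASE4 and RNASE6 were called, against 5.85% of all genes higher. RNASE6 had 40.4 and 69.2 CPM in the combination against 19.5 and 19.9 CPM in DMSO (log2 1.47 ± 0.27, edgeR adjusted p = 0.0241). RNASE4, at 1.02 and 0.868 CPM in the combination, had 0 counts in both DMSO libraries, so it could only be called higher. It shares first exons with ANG (0.763 and 2.36 CPM in the combination, 0.162 and 0.285 CPM in DMSO, not called), so their reads may be split between them. Of 9 heme peroxidase and heme supply genes only CALR was called (5.85% of all genes higher), the chaperone that helps MPO fold (0.91 ± 0.22, edgeR adjusted p = 0.0479), and CPOX of heme synthesis was not (-0.44 ± 0.13, adjusted p = 0.0791). With length and GC offsets 4 of these 9 were called higher and 2 lower, against 12.1% and 12.6% of genes, and without combination replicate 2, 2 were higher and none lower, against 8.9% and 5.6%. Of 3 relatives of BPI and lysozyme PLTP was called (log2 2.06 ± 0.44, edgeR adjusted p = 0.0363), against 5.85% of all genes higher. CETP and LYG1 (lysozyme G1) were not called.

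Transcription factors that act on granule genes were higher in 5 of 12 cases and lower in none, against 5.85% and 3.44% of all genes. Without combination replicate 2, 6 of 12 were higher (8.9% of genes), and with length and GC offsets 6 were higher and 1 lower (12.1% and 12.6%). CEBPE, needed for late granule genes, had 9.46 and 26.0 CPM in the combination, against 0.433 and 0.569 CPM in DMSO (log2 5.11 ± 0.60, edgeR adjusted p = 0.00623). In DMSO it was too low to pass the count filter, which it passed through treated libraries. CEBPD (2.05 ± 0.29, adjusted p = 0.0107) and SPI1 (1.19 ± 0.25, adjusted p = 0.0324) were also higher in edgeR. No gene of these 7 lists was called with VTP50469 or with WM119 alone in edgeR, which called 0.153% and 0% of all genes higher there. Nothing particular to the lists can be read from this. SLPI stood 3.16 above DMSO on the log2 scale with VTP50469 (edgeR adjusted p = 0.119) and 2.81 with WM119 (adjusted p = 0.345).

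Markers of other cells were read beside these results, and their part in them was not tested. For mature neutrophils LTF, LCN2, MMP8 and CEACAM8, 4 of 6 markers, had 0 counts in every library, and the summed level was 3.39 to 11.8 CPM in the combination, 1.08 to 1.80 with VTP50469, 0.426 to 0.750 with WM119 and 0.433 to 0.711 in DMSO. The other markers on that list, CAMP (cathelicidin) and MMP9, were called higher in the combination, against 5.85% of all genes. These sums are theirs alone, so both passed the count filter only through groups where they are high. For T and NK cells CD3E was at 0, and the sum was 33.2 to 84.3 CPM in the combination, 22.3 to 28.1 with VTP50469, 24.8 to 35.0 with WM119 and 22.1 to 25.1 in DMSO. CD2, 1 of 3 tested genes of that list, was called higher in the combination (5.85% of all genes). HBA1 and HBB of erythroid cells, PF4 and PPBP of megakaryocytes, and EPCAM and KRT19 of epithelial cells had 0 counts throughout. The erythroid sum stayed at or under 0.0938 CPM in every library. The B and plasma cell sum was 1.10 to 3.16 CPM in the combination, 0.527 to 0.539 with VTP50469, 0.610 to 0.937 with WM119 and 1.08 to 1.09 in DMSO. The megakaryocyte sum was 0.0424 to 1.36 CPM in the combination and 0.162 to 0.190 in DMSO, and the epithelial sum 2.20 to 4.59 CPM in the combination and 0.758 to 1.52 in DMSO.

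The genes most like each transcript in pattern were found by the root mean square difference of log2(CPM + 0.5) over the 8 libraries, after each gene's mean was subtracted. This is a description of likeness across libraries that share depth and length trends. MPO was nearest to ANKRD22 (0.365), MS4A3 (0.408) and GAPT (0.409), and of the other 8 transcripts nearest to BPI (0.895) and farthest from AZU1 (1.66). MS4A3 averaged 113 CPM in the combination, 31.4 with VTP50469, 5.999 with WM119 and 2.57 in DMSO. LYZ was nearest to RAB37 (0.188), NFAM1 (0.228) and LSP1 (0.233). The closest pair among the 9 was ELANE and AZU1 (0.163). ELANE was nearest to HLA-B (0.140), PLD3 (0.145) and AGTRAP (0.149), and RNASE2 had GLIPR2 (0.121) and CEBPD (0.132) among its nearest. Reads of HLA-B may be split with near-identical genes. PRTN3 was nearest to SYTL1 (0.153), THBS4 (0.181) and C20orf197 (0.209), AZU1 to RABAC1 (0.0849), IL17RC (0.133) and TRAPPC6A (0.137), and CTSG to SPNS3 (0.217), DBP (0.241) and RNASE2 (0.246). BPI was nearest to TMEM45A (0.1002), NFE2 (0.223) and CLEC12A (0.233), and RNASE3 to RASSF4 (0.215), C1orf162 (0.218) and PSTPIP1 (0.219).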

How the data were processed

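Bulk RNA-seq of 8 MOLM-13 libraries, 2 in each of 4 groups, was analysed. The authors mapped paired-end reads of 150 bp to hg38 with STAR 2.5.1b, and the deposited table holds raw expected counts, 1 row per symbol. How reads were counted, with what strand setting and annotation, is not given in the sources used here. Medium and kits differ between paper and labels and are left out. Between 11.4% and 16.6% of the values above 0 are not whole numbers. The counts were rounded and fitted in R 4.3.3 with edgeR 4.0.16 (TMM, filterByExpr, quasi-likelihood F test, 1 fit of all groups), with 4 residual and 2.88 prior degrees of freedom and a common dispersion of 0.0457. P values were adjusted by Benjamini-Hochberg over 12401 genes. The scripts were tested on simulated data. DESeq2 1.42.0 tested 16403 genes.

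The alternatives were DESeq2, scaling by RLE factors or by library size only, a filter of at least 10 counts per library or none, unrounded counts, a replicate block, a robust fit, only the groups compared, limma 3.58.1 with library weights, leaving out each library, and, chosen after seeing the data, loess offsets (span 0.4) for the length and GC content of transcripts and gene-list counts without combination replicate 2. Transcripts came from GENCODE v44, where 92.7% of the symbols had a length, and positions and promoters from RefSeq. The floor is 3 counts per group, and intervals are at 95%. No 2 libraries of a group agreed within sampling noise. The 9 genes and the 7 gene lists were chosen with earlier results of these data known. Genes named from a list are the 3 with the lowest p in the combination against DMSO. CTSC, PRSS57, CD63 and the defensin genes were named after their values were seen. A few genes that these rules would name are not reported here.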

Additional observations from a re-analysis of the deposited data

Results flagged for a closer look

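BPI met a rule for opposite movement: both WM119 libraries stood below both DMSO libraries (1 and 0 counts against 1 and 1), whereas both combination libraries stood above both VTP50469 libraries (70 and 101 counts against 27 and 48). The interaction was 2.41 on the log2 scale with an interval of -1.41 to 6.24 and was not called (edgeR adjusted p = 0.938). Because WM119 and DMSO are both under the floor of 3 counts, no direction between them can be read.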

How the results depend on the processing

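Counts of the 9 transcripts called were unchanged with RLE factors, library size only, unrounded counts or a robust fit. The share of all genes called differed between settings too. For VTP50469 against DMSO it was 0.153% higher in the main fit, 0.991% with DESeq2 and 1.24% with offsets. No such share is given for limma, the other filters, the replicate block or fits of only the groups compared. Their counts below are therefore not set against all genes. With the combination against DMSO, 8 called, the count was 0 when only the groups compared were fitted, and 2 to 9 with 1 library left out. For VTP50469 against DMSO, 2 called, it was 7 with DESeq2, 9 with only those groups or with limma, 8 with offsets, 3 with no filter, and 0 to 8 with 1 library left out (called means adjusted p under 0.05). For WM119 against DMSO, 0 called, it was 2 with DESeq2, 3 with only those groups or with limma, 2 with offsets, and 0 to 3. For the combination against VTP50469, 1 called, it was 5 with DESeq2, 0 with only those groups or with limma, 5 with offsets, and 0 to 9. Against WM119, 5 called, it was 9 with DESeq2 or offsets, 0 with only those groups, 2 with limma, and 0 to 9. For VTP50469 against WM119, 1 called, it was 2 with DESeq2, no filter or only those groups, 4 with limma, 6 with offsets, and 0 to 6. For the interaction, 0 called, it was 0 to 5 with 1 library left out, and it cannot be fitted to 2 groups. Fits of only 2 groups and fits with 1 library fewer hold fewer residual degrees of freedom, and a lone library is assumed to vary like the other groups. The cause of the shifts between settings was not tested.

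The replicate numbers share only a number: the correlation of same-numbered deviations ran from -0.59 to 0.29. With a replicate block, 6 were called in the combination against DMSO, 2 with VTP50469 and 0 with WM119 against DMSO, 0 in the combination against VTP50469, 3 against WM119, 0 between the single agents and 0 for the interaction.

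Of 1180 fitted changes under the alternatives, 19 changed sign, all of values not called. With 1 library left out, WM119 against DMSO ran from -0.046 to 0.17 for ELANE and from -0.10 to 0.48 for CTSG, and was -0.13 and -0.022 with offsets. CTSG in the combination against VTP50469 ran from -0.16 to 0.83, and was -0.18 with offsets. The interaction ran from -0.35 to 0.25 for MPO, which was 0.0034 with DESeq2 and 0.010 with RLE factors, from -0.73 to 0.36 for PRTN3, and from -0.38 to 0.60 for CTSG, which was -0.15 with offsets. With pseudocounts of 0.1 or 5, 0 of the 3 genes nearest to BPI were the same; 1 of 3 was for AZU1 at both and for PRTN3 at 5, and 0 of 3 for RNASE3 at 5. With 2 libraries per group, small differences are not detectable.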
